A study of Mus musculus with 63 samples.

Results

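The NRF2 antioxidant programme was followed through 10 of its genes, Gclc, Gclm, Nqo1, Hmox1, Txnrd1, Srxn1, G6pdx, Gpx2, Akr1b8 and Nfe2l2, in mouse small intestinal organoids and intestinal epithelial cells (IECs) that lack the Mediator kinases CDK8 and CDK19. They are 10 of the 54752 genes in the count tables and were taken by gene name. RNA-Seq counts came from 57 libraries in 19 groups of 3. Organoids of 5 genotypes were collected 7 days after 100 nM 4-hydroxytamoxifen (4-OHT), which activates the Cre recombinase of VillinCreERT2, a transgene driven by the Villin promoter of intestinal epithelium. These were VillinCreERT2 and C57BL/6, with both kinase genes intact, CDK8iIEC-KO (VillinCreERT2 with Cdk8 fl/fl), Cdk8 fl/fl/Cdk19-/-, which has no Cre and lacks CDK19 only, and CDK8iIEC-KO/Cdk19-/-, the double knockout. A time course used organoids of the double knockout genotype given 0.001% EtOH or 4-OHT for 24 hours and collected at day 3, 5, 7 or 10, so both arms lack CDK19 and the 4-OHT arm also deletes Cdk8. Organoids of that genotype in Wnt3-conditioned medium (Wnt3-CM) were collected at day 10 with EtOH or 4-OHT, and organoids with VillinCreERT2, Cdk8 fl/fl and the kinase-dead allele Cdk19 D173A over a Cdk19 null allele at day 7. IECs came from VillinCreERT2 and CDK8iIEC-KO/Cdk19-/- mice 14 days after 5 daily injections of tamoxifen (80 mg/kg). Organoid medium held 1.25 mM N-acetylcysteine, an antioxidant and a source of cysteine. The time course holds no Cre line with intact kinases, so 4-OHT, Cre activity and loss of CDK8 cannot be told apart in it. Each genotype of the 5-way comparison is 1 line, so line and genotype cannot be told apart either.

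NRF2, the transcription factor encoded by Nfe2l2, is bound by KEAP1 and marked by the CUL3 ubiquitin ligase for degradation. Oxidants and electrophiles modify KEAP1, and NRF2 then accumulates, pairs with small MAF proteins and binds antioxidant response elements (AREs) near genes for glutathione synthesis, quinone reduction, the thioredoxin system and NADPH supply. Its activity is set mainly through the stability of the protein, which RNA counts do not measure. Hmox1 is also held down by BACH1, a repressor that haem displaces, and Gpx2 is expressed chiefly in intestinal crypts.

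Positions are on GRCm38 from GENCODE vM21, and a count covers all exons of a gene. Gclc (chr9:77754535-77794485, plus strand) and Gclm (chr3:122245557-122270732, plus) encode the catalytic and modifier subunits of glutamate-cysteine ligase, the first enzyme of glutathione synthesis. Nqo1 (chr8:107388225-107403206, minus) encodes a quinone reductase, Akr1b8 (chr6:34354119-34368463, plus) an aldo-keto reductase that reduces aldehydes, and Hmox1 (chr8:75093621-75100589, plus) the inducible haem oxygenase. Txnrd1 (chr10:82833951-82897712, plus) encodes cytosolic thioredoxin reductase and Srxn1 (chr2:152105516-152111376, plus) sulfiredoxin, which repairs overoxidised peroxiredoxins. G6pdx (chrX:74409483-74429194, minus) encodes glucose-6-phosphate dehydrogenase, the entry enzyme of the NADPH-producing pentose phosphate pathway. Gpx2 (chr12:76792333-76795554, minus) encodes the gastrointestinal glutathione peroxidase and Nfe2l2 (chr2:75675513-75704641, minus) NRF2 itself. Exons of Ikbkg on the opposite strand cover 13.57% of the exon bases of G6pdx, and exons of Gm17494 and the pseudogene Gm6061 cover 4.71% and 3.88% of those of Gclm. Whether the counting used strand is not given in the sources used here, so these reads may be shared. The closely similar Akr1b10 (chr6:34384218-34396950) and Akr1b7 (chr6:34412334-34423142) follow Akr1b8 on chromosome 6, and reads that match more than 1 of them could be divided between these genes or left out.

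Because the genes are known for a shared factor, their RefSeq promoters on GRCm38.p6, from 250 bases before to 50 after a gene's start, were searched for the core of an ARE, TGACNNNGC, on either strand. Promoters were found for 8 of the 10 genes (not for Gclc and Hmox1), 10 promoters in all. The letters stood in 5 of these 10, for Gclm, Txnrd1, Srxn1, G6pdx and Nfe2l2, and in 4071 of all 32851 promoters (12.4%). No match overlapped an AP-1 motif (TGANTCA on either strand), which 7.81% of promoters hold. Each match is shown in the direction of the motif with 10 bases on either side, and the 9 bases of the core are in capitals.
Gclm: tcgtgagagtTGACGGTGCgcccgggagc
Txnrd1: cgtgtcagaaTGACAAAGCaaaaatccag
Srxn1: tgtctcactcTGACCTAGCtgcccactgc
G6pdx: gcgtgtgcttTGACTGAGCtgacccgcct
Nfe2l2: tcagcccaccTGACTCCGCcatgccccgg
The windows lie at chr3:122245413-122245441 for Gclm, chr10:82859104-82859132 for Txnrd1, chr2:152105542-152105570 for Srxn1, chrX:74428919-74428947 for G6pdx and chr2:75704885-75704913 for Nfe2l2. The motif reads along the gene's own strand for Nfe2l2 and along the opposite strand for the other 4, which is the plus strand of the genome for G6pdx and the minus strand for the rest. In the direction of the gene, the core began 134 bases before the annotated start of Gclm, 92 before 1 of the 3 starts of Txnrd1, 57 before that of G6pdx, 240 before that of Nfe2l2, and at base 29 of Srxn1, counting the start as 1. A match is a run of letters and not a measured binding site. The promoters of Nqo1, Gpx2 and Akr1b8 held none in this window.

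Total counts per library ran from 15485959 to 32909565, with a median of 19374952. Levels are given as CPM, that is, counts relative to the library total after scaling within a table, and all 10 genes passed the filter on low counts in every table. In the double knockout organoids Cdk8 had a log2 difference of -0.19 from VillinCreERT2, and in Cdk8 fl/fl/Cdk19-/- organoids Cdk19 had one of -0.28 from C57BL/6, on whole-gene counts that include exons outside the deleted part and so check nothing about the genotypes. Where the labels do not tie replicates to separate cultures or animals, the p-values measure only the spread between these samples, which may be technical. In bulk samples fewer cells of a type and less RNA per cell cannot be told apart. Summed levels of marker genes moved between groups and are given beside the results. Epithelial markers were detected in all groups, and in organoids the sum of 9 immune markers was at most 1.36 CPM, with 2 to 6 of the 9 at 0 in a group.

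Per kilobase of exon, Gpx2 and Nfe2l2 stood highest in VillinCreERT2 organoids, at 168 and 139.6 CPM per kb (mean of 3 libraries). Nqo1 (105), Gclc (75.1), Srxn1 (67.8), Txnrd1 (62.6) and G6pdx (59) followed on the same scale, and Akr1b8 (31.3), Gclm (22.1) and Hmox1 (18.3) stood lowest. In VillinCreERT2 IECs Gpx2 (226 CPM per kb) was again highest, followed by Srxn1 (130.3), while Gclc (13.3), Akr1b8 (8.52) and Hmox1 (3.23) stood lowest. IECs and organoids are separate tables and were not tested against each other.

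The genes did not move as a block. A gene is called higher or lower, or said to rise or fall, where edgeR's quasi-likelihood test gave an adjusted p below 0.05 over all genes tested and the fold exceeded 1.5. Over the 10 knockout and 4-OHT comparisons (3 lines at day 7, IECs, 4 days of the time course, Wnt3-CM and the kinase-dead line), Akr1b8 had a positive log2 difference in all 10 and rose in 5, although against VillinCreERT2 in place of C57BL/6 it was called lower in Cdk8 fl/fl/Cdk19-/- (-0.94). Hmox1 rose in 2 and fell in 5. Nqo1 rose in 3 and fell in 1, Gpx2 rose in 1 and fell in 2, Gclc fell in 2, and Gclm and Srxn1 rose in 1 each. Txnrd1, G6pdx and Nfe2l2 were called in none of the 10. Against the other control line Hmox1 changed sign in all 3 lines at day 7. The calls of Gclc, Nqo1 and Gpx2 in the double knockout were then lost, and G6pdx was called higher in CDK8iIEC-KO. The comparisons are not independent, since those of CDK8iIEC-KO and of the double knockout share the VillinCreERT2 libraries.

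**Figure D1:**
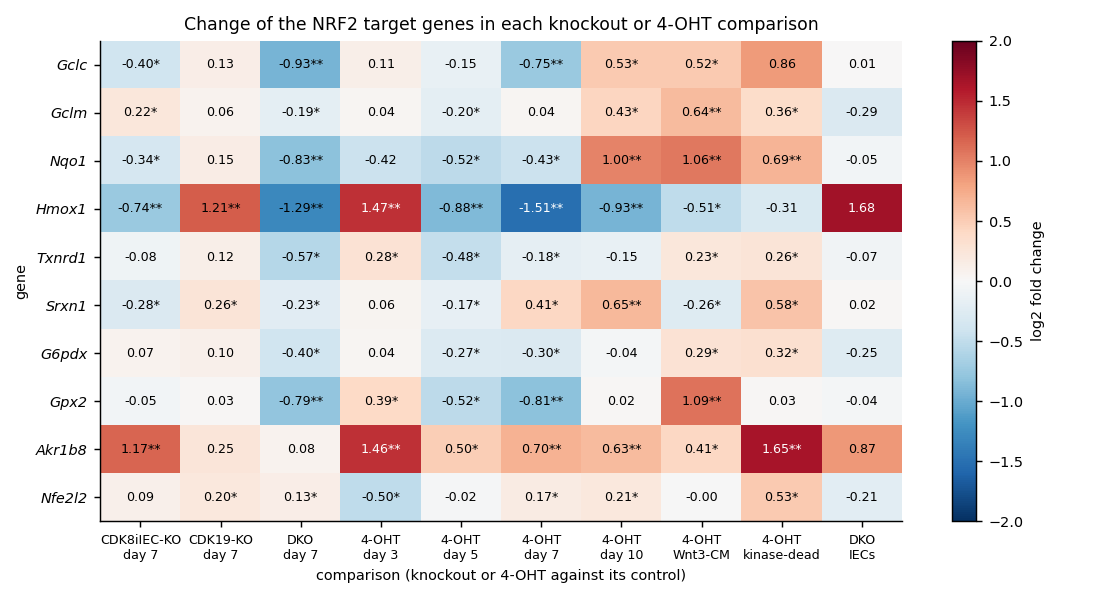
Log2 differences of the 10 genes (rows) in each knockout or 4-OHT comparison (columns), as fitted by edgeR, with colours from blue (lower) to red (higher), 1 asterisk for an adjusted p below 0.05 and a second where the fold also exceeded 1.5. Akr1b8 is positive in all 10 comparisons with the controls shown (but -0.94 in Cdk8 fl/fl/Cdk19-/- against VillinCreERT2), while Hmox1 runs from -1.51 to 1.68.

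Culture day came first as background to the 4-OHT responses, and in vehicle organoids most of the genes rose between day 3 and day 5. Of the 10 genes, 9 rose and none fell, against 12% of all genes called in this comparison and 2.82% called higher. Hmox1 levels were 7.51, 7.33 and 7.98 CPM at day 3 and 20.1, 22.7 and 27.1 at day 5 (log2 difference 1.62 ± 0.14 SE, edgeR adjusted p = 1.27e-09). Nqo1 levels were 26.5, 21.7 and 27.1 CPM and then 43.5, 68.9 and 47.4 (log2 difference 1.09 ± 0.17 SE, edgeR adjusted p = 7.63e-05). Every day 5 library of both genes stood above every day 3 library. The other genes that rose were Gclc (0.95 log2), Gpx2 (0.91), Srxn1 (0.88), Txnrd1 (0.68), Gclm (0.64), G6pdx (0.64) and Akr1b8 (0.63). Nfe2l2, the gene of the factor itself, had a log2 difference of only 0.16 (edgeR adjusted p = 0.0386). The median of the 10 was 0.78 log2, beside -0.0029 over all genes. Among 71 tested genes of wider antioxidant lists, 13 rose and 1 fell. The sum of 8 Paneth cell markers was 3741 to 4348 CPM at day 3 and 5010 to 6155 CPM at day 5, that of 10 enterocyte markers 6911 to 7502 CPM and 8466 to 12103 CPM, and their part in the rise was not tested. Without day 3 replicate 3 or day 5 replicate 1 Akr1b8 differed by 0.558 or 0.541 log2 and lost its call, and Gclm, G6pdx and Akr1b8 lost theirs under upper-quartile scaling. Day and the preparation of the cultures cannot be told apart.

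After day 5 the genes parted. From day 5 to day 7 Hmox1 alone of the 10 was called, rising to 46.8, 40.1 and 41 CPM (log2 difference 0.87 ± 0.12 SE, edgeR adjusted p = 0.000525), where 0.57% of all genes were called. Hmox1 kept its call without any 1 library of the 2 days, while the share of all genes called ran from 0.019% without day 5 replicate 1 to 1.04% without day 7 replicate 3. From day 7 to day 10 Hmox1 fell back to 16.5, 16.3 and 22.2 CPM (-1.22 log2), and Akr1b8 (-0.92) and Nfe2l2 (-0.71) fell with it, against 23.3% of all genes called. Nfe2l2 stood at 400.3, 397 and 394 CPM at day 7 and 261, 236 and 233 at day 10, with no overlap. The Paneth marker sum with EtOH, given below, was higher at day 10 than at day 7, and its part in these falls was not tested. At day 10 against day 3, 7 of the 10 genes were higher and Nfe2l2 was lower (-0.65 log2), where 38.4% of all genes were called. The gene of NRF2 was at its lowest on the last day, when 8 of the other 9 genes stood above day 3, 7 of them past the call.

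**Figure D2:**
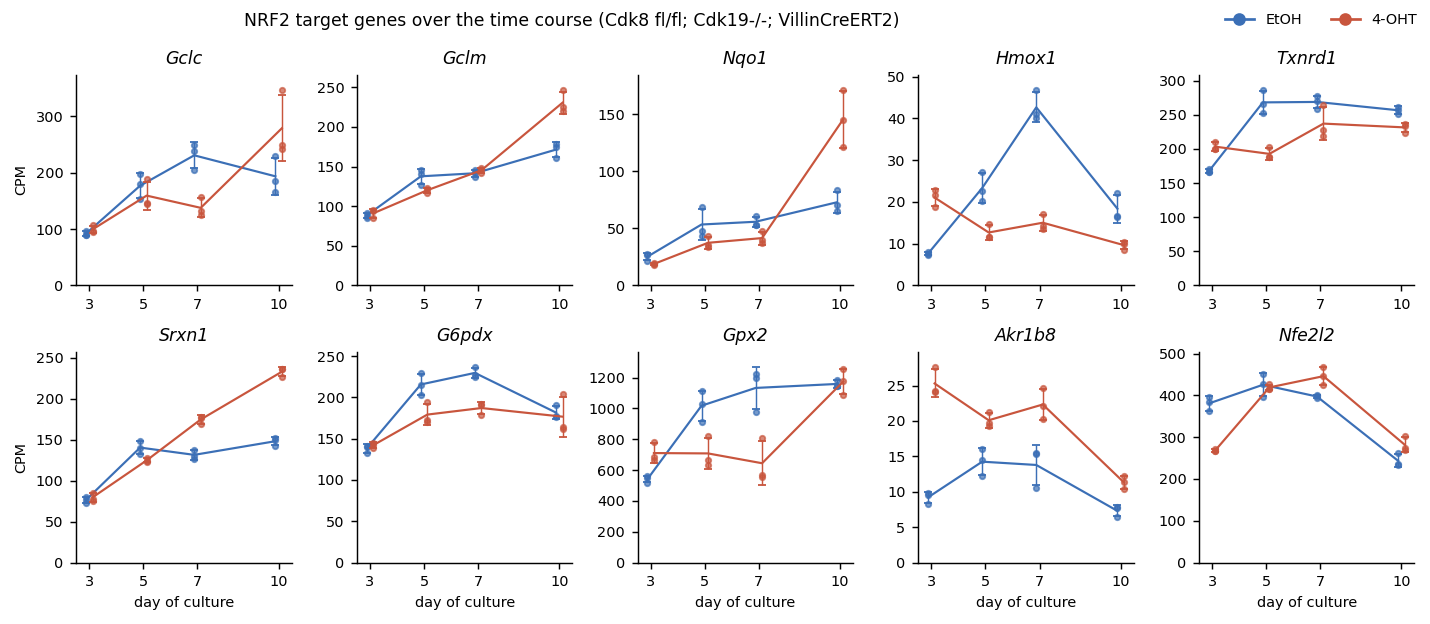
Levels of the 10 genes in CPM (linear axes from 0) against culture day, with each library as a point and lines through the means of 3 libraries given EtOH or 4-OHT. Hmox1 and Akr1b8 are higher with 4-OHT at day 3, and Hmox1 is lower with 4-OHT at days 5, 7 and 10.

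At day 3, the earliest time after 4-OHT, Hmox1 and Akr1b8 rose and the other 8 genes were not called, against 12.4% of all genes. Hmox1 was at 7.51, 7.33 and 7.98 CPM with EtOH and 22.7, 21.6 and 18.8 with 4-OHT, a 2.76-fold difference (log2 difference 1.47 ± 0.14 SE, edgeR adjusted p = 1.12e-09). Akr1b8 was at 9.51, 9.83 and 8.3 CPM and 27.6, 24 and 24.3, a 2.74-fold difference (log2 difference 1.46 ± 0.13 SE, edgeR adjusted p = 2.79e-10). The groups did not overlap for either gene. Nfe2l2 stood lower with 4-OHT, at 267, 267 and 272 CPM against 384, 362 and 396, with an adjusted p of 1.26e-07 (edgeR) but a fold of 0.705, short of the fold asked for. Gpx2 (0.39 log2) and Txnrd1 (0.28) also passed the adjusted p alone, as 34.4% of all genes did with or without the fold. Gclc, Gclm, Srxn1 and G6pdx overlapped between the arms. Of 71 tested genes of the wider lists 4 rose and 14 fell, with 9 of 21 glutathione genes among the latter. The enterocyte marker sum was 6911 to 7502 CPM with EtOH and 3200 to 3730 CPM with 4-OHT, and its part in these differences was not tested.

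From day 5 the sign of Hmox1 was the opposite. It was at 20.1, 22.7 and 27.1 CPM with EtOH and 11.7, 11.6 and 14.7 with 4-OHT at day 5 (log2 difference -0.88 ± 0.13 SE, edgeR adjusted p = 4.53e-06). At day 7 it was at 46.8, 40.1 and 41 CPM and 14.2, 13.6 and 17.2 (log2 difference -1.51 ± 0.12 SE, edgeR adjusted p = 9.1e-11), and so fell by 64.8%. At day 10 the values were 16.5, 16.3 and 22.2 CPM and 8.58, 10.5 and 9.8 (log2 difference -0.93 ± 0.13 SE, edgeR adjusted p = 1.59e-06). No library overlapped between the arms on any of these days. With 4-OHT the level stayed between 8.58 and 22.7 CPM over all 4 days, while with EtOH it ran from 7.33 to 46.8 CPM. The response at day 5 was lower than that at day 3 by a tested difference of -2.35 log2 (edgeR adjusted p = 1.52e-10), where 20.2% of all genes were called. From day 5 to day 7 it moved by a further -0.62 (adjusted p = 0.0142), where 8.81% were called, a value that sat close to the fold asked for. Between day 3 and day 10 the responses of 5 of the 10 genes differed, where 26.3% of all genes were called, and Hmox1 (-2.40 log2) had the largest difference.

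Akr1b8 kept a positive difference on all 4 days. It rose at day 3, day 7 and day 10 and at day 5 passed the adjusted p alone (0.50 log2, edgeR adjusted p = 0.00198). At day 7 its levels were 15.3, 10.6 and 15.5 CPM with EtOH and 20.2, 24.7 and 22.1 with 4-OHT (log2 difference 0.70 ± 0.12 SE, edgeR adjusted p = 2.67e-05). At day 10 they were 6.39, 7.64 and 7.86 and 11.4, 12.2 and 10.4 (log2 difference 0.63 ± 0.14 SE, edgeR adjusted p = 0.000348). The arms did not overlap on these days, but both calls rest on differences close to the fold asked for. Without EtOH replicate 2 the day 7 log2 difference was 0.525, and without EtOH replicate 1 or 4-OHT replicate 2 that at day 10 was 0.544 or 0.576, all below the 0.585 that a fold of 1.5 asks for. In EtOH replicate 2 of day 7 the 7 mesenchymal markers summed to 42.8 CPM, against 1.36 and 1.37 CPM in the other 2 libraries, and its part in the result was not tested. For Akr1b7, the similar neighbour, levels with 4-OHT and EtOH were 1.22, 0.811 and 1 CPM and 2, 1.59 and 1.44 at day 3, and 6.18, 6.07 and 6.19 and 0.92, 1.52 and 1.57 at day 10. The log2 difference of Akr1b7 was -0.73 at day 3 and did not pass (edgeR adjusted p = 0.0858), and Akr1b7 rose at day 5 (0.95, 0.00924), day 7 (2.02, 4.93e-07) and day 10 (2.20, 1.03e-07).

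Gclc and Gpx2 fell with 4-OHT at day 7, and Nqo1 rose at day 10. Gclc was at 248, 239 and 205 CPM with EtOH and 157, 124 and 132 with 4-OHT at day 7, and fell (log2 difference -0.75 ± 0.15 SE, edgeR adjusted p = 0.000421). Gpx2 was at 1222, 979 and 1197 CPM and 557, 568 and 807, and fell as well (log2 difference -0.81 ± 0.12 SE, edgeR adjusted p = 1.06e-05). The arms did not overlap for either gene. At day 10 Gclc was the higher with 4-OHT, at 347, 242 and 249 CPM against 229, 166 and 186 (0.53 log2, edgeR adjusted p = 0.00679), under the fold asked for, and Gpx2 overlapped (0.02 log2). Nqo1 was at 83.1, 65 and 69.96 CPM with EtOH and 171, 144 and 121 with 4-OHT at day 10, and rose (log2 difference 1.00 ± 0.16 SE, edgeR adjusted p = 3.11e-05), after a difference of -0.43 at day 7. The change of response from day 7 to day 10 passed the test for Nqo1 (1.43 log2, adjusted p = 0.000309), Gclc (1.27, 0.000475) and Gpx2 (0.83, 0.00193), where 6.41% of all genes were called. The turn of these 3 genes between the later days is therefore larger than the spread between replicates.

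Among the thioredoxin genes Srxn1 rose at day 10, from 142, 150.0 and 152 CPM with EtOH to 236, 236 and 227 (log2 difference 0.65 ± 0.06 SE, edgeR adjusted p = 3.21e-10). Txnrd1, which acts in the same system, did not follow it, at 251, 257 and 262 CPM and 237, 224 and 234 (-0.15 log2). Txnrd1 passed the adjusted p alone at day 3 (0.28 log2), day 5 (-0.48) and day 7 (-0.18). An adjusted p below 0.05 at any fold was reached by 38.3% of all genes at day 5, 45.2% at day 7 and 44.3% at day 10. G6pdx stayed within -0.30 and 0.04 log2 on the 4 days, and Gclm within -0.20 and 0.43. Nfe2l2 with 4-OHT differed by -0.02 log2 at day 5, 0.17 at day 7 and 0.21 at day 10, and Keap1 was called on no day.

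In counts, 1 of the 10 genes was called at day 5 (Hmox1, lower), 4 at day 7 (Gclc, Hmox1 and Gpx2 lower, Akr1b8 higher) and 4 at day 10 (Nqo1, Srxn1 and Akr1b8 higher, Hmox1 lower). The shares over all genes were 13.2%, 18.3% and 15.8%. The median log2 difference of the 10 was 0.08 at day 3, -0.23 at day 5, -0.24 at day 7 and 0.32 at day 10, beside -0.02, 0.0012, -0.0087 and 0.02 over all genes. At day 5 Nqo1 and Gpx2 stood near the fold, and both were called lower without EtOH replicate 1 (-0.66 and -0.61) or 4-OHT replicate 3 (-0.65 and -0.66), and Nqo1 alone without EtOH replicate 3 (-0.61). In the wider lists of 71 tested genes, 1 rose and 7 fell at day 5, 7 rose and 3 fell at day 7, and 20 rose and 6 fell at day 10. The glutathione list held 11 of the genes that rose at day 10. The Paneth marker sum was 4973 to 6039 CPM with EtOH and 1856 to 2104 CPM with 4-OHT at day 7, and 8195 to 8406 CPM and 2159 to 2560 CPM at day 10. The stem cell marker sum was 1945 to 2335 CPM and 688 to 1060 CPM at day 7, and the part of these cells in the results was not tested.

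Between lines at day 7, loss of CDK8 alone went with higher Akr1b8 and lower Hmox1, 2 of the 10 genes against 7.23% of all genes. Akr1b8 was at 48.5, 41.1 and 51.3 CPM in VillinCreERT2 and 108, 102 and 107 in CDK8iIEC-KO organoids, a 2.25-fold rise (log2 difference 1.17 ± 0.07 SE, edgeR adjusted p = 9.04e-12). Hmox1 was at 31.8, 31.5 and 32.5 CPM and 19.99, 20.004 and 17.5, and so fell by 40.03% (log2 difference -0.74 ± 0.08 SE, edgeR adjusted p = 2.02e-07). Neither gene overlapped between the lines. Akr1b7 moved the other way to Akr1b8, at 13.9, 11.5 and 16.9 CPM and 6.78, 6.87 and 6.83 (-1.04 log2, edgeR adjusted p = 5.26e-07). Gclc (-0.40 log2), Nqo1 (-0.34), Srxn1 (-0.28) and Gclm (0.22) passed the adjusted p alone, which 30.3% of all genes reached at any fold, and 6 genes of the wider lists rose and 5 fell of 72 tested.

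Loss of CDK19 alone, set against C57BL/6, went with higher Hmox1 only, 1 of the 10 genes against 5.25% of all genes. Hmox1 was at 5.65, 6.71 and 7.57 CPM in C57BL/6 and 15, 14.9 and 16.3 in Cdk8 fl/fl/Cdk19-/- organoids, 2.31-fold higher (log2 difference 1.21 ± 0.11 SE, edgeR adjusted p = 2.99e-09). The groups did not overlap. The other 9 genes also had positive log2 differences, from 0.03 (Gpx2) to 0.26 (Srxn1). In the wider lists 4 of 72 genes rose and none fell.

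In the double knockout 4 of the 10 genes fell, Gclc, Nqo1, Hmox1 and Gpx2, against 19.4% of all genes called and 7.95% called lower. Gclc was at 275, 281 and 293 CPM in VillinCreERT2 and 164, 141 and 141 in CDK8iIEC-KO/Cdk19-/- organoids (log2 difference -0.93 ± 0.07 SE, edgeR adjusted p = 1.78e-10). Nqo1 was at 156, 154 and 179.7 CPM and 97.2, 88.8 and 89.4 (log2 difference -0.83 ± 0.06 SE, edgeR adjusted p = 2.85e-11). Hmox1, with the largest difference, was at 13.1, 11.9 and 14.2 CPM in the double knockout (log2 difference -1.29 ± 0.09 SE, edgeR adjusted p = 6.15e-12). These 3 genes fell by 47.5%, 43.6% and 59%, with no overlap between the lines. Gpx2 was at 527, 534 and 567 CPM and 302, 289 and 355 (log2 difference -0.79 ± 0.09 SE, edgeR adjusted p = 1.49e-06). Akr1b8, which rose with loss of CDK8 alone, was at 52.9, 49.7 and 45.9 CPM and overlapped VillinCreERT2 (0.08 log2), while Akr1b7 rose (log2 difference 0.80 ± 0.11 SE, edgeR adjusted p = 1.17e-06). Txnrd1 (-0.57), G6pdx (-0.40), Srxn1 (-0.23), Gclm (-0.19) and Nfe2l2 (0.13) passed the adjusted p alone, which 52.9% of all genes reached at any fold. In the wider lists 5 of 72 genes rose and 6 fell. The median of the 10 was -0.48 log2, beside -0.0021 over all genes.

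The direction of most of these results hung on the control line. Both control lines have intact kinases, yet all 10 genes were lower in C57BL/6 than in VillinCreERT2 organoids with no overlap, which 63.7% of all genes showed in either direction. Of the 10, 5 passed the call (Gclc -1.12 log2, Nqo1 -1.06, Hmox1 -2.26, G6pdx -0.66 and Akr1b8 -1.19), against 26.4% of all genes called and 10.9% called lower. For Hmox1 the levels were 5.65, 6.71 and 7.57 CPM in C57BL/6 and 31.8, 31.5 and 32.5 in VillinCreERT2 organoids (log2 difference -2.26 ± 0.10 SE, edgeR adjusted p = 4.24e-16). With C57BL/6 as the control of the double knockout, the log2 difference was 0.97 for Hmox1, 0.20 for Gclc, 0.23 for Nqo1 and -0.33 for Gpx2, so that 3 of the 4 changed sign. Hmox1 and Akr1b8 were then called higher in the double knockout, where 2734 of 15125 genes were called. With C57BL/6 as the control of CDK8iIEC-KO, Hmox1 differed by 1.52 and Akr1b8 by 2.36, and Akr1b8 alone of the 2 kept its sign. With VillinCreERT2 as the control of Cdk8 fl/fl/Cdk19-/-, all 10 genes changed sign and 4 were called lower, Hmox1 (-1.05), Gclc (-0.99), Akr1b8 (-0.94) and Nqo1 (-0.91), where 18.5% of all genes were called. The Paneth marker sum also differed between the control lines, at 2781 to 2907 CPM in VillinCreERT2 and 4996 to 6199 CPM in C57BL/6, and was 856 to 892 CPM in the double knockout. Its part in the results was not tested.

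**Figure D3:**
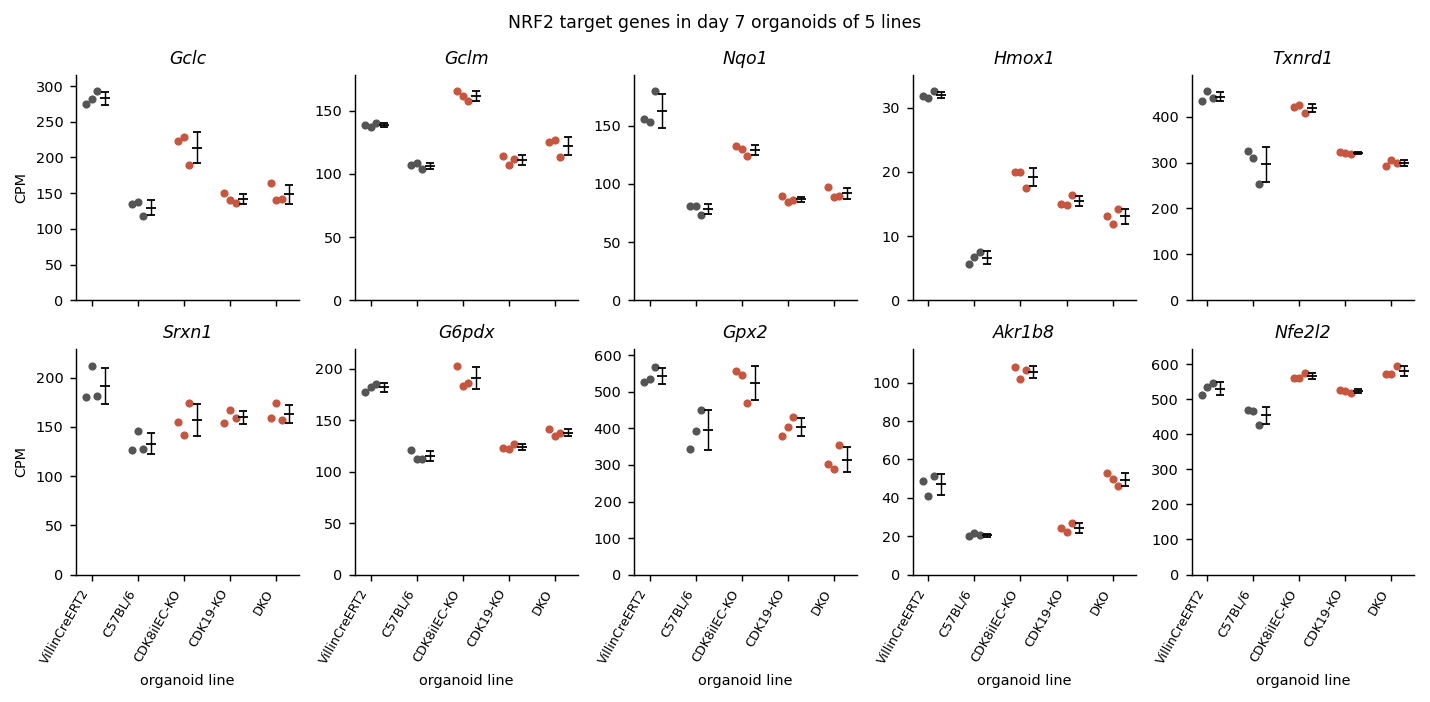
Levels of the 10 genes in CPM (linear axes from 0) in the 5 organoid lines at day 7, with each library as a point and the mean ± SD of 3 libraries beside them (CDK19-KO is Cdk8 fl/fl/Cdk19-/- and DKO the double knockout). C57BL/6 lies below VillinCreERT2 for every gene, and CDK8iIEC-KO stands apart for Akr1b8, at 102 to 108 CPM.

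The double knockout was also set against the sum of the single changes, each taken from its own control line. It was lower than that sum for 6 of the 10 genes, Hmox1 (log2 difference -1.76 ± 0.14 SE, edgeR adjusted p = 2.86e-10), Akr1b8 (-1.34 log2), Gpx2 (-0.77), Gclc (-0.66), Nqo1 (-0.64) and Txnrd1 (-0.60), where 19.6% of all genes were called. For Akr1b8 the levels behind this were 106 ± 3.26 CPM (SD, n = 3) in CDK8iIEC-KO and 49.5 ± 3.51 in the double knockout. Without C57BL/6 replicate 3 the calls for Gclc (-0.58), Nqo1 (-0.58) and Txnrd1 (-0.49) were lost. That for Txnrd1 was also lost under upper-quartile scaling (-0.55) and with at least 10 counts asked of every library (-0.58). Since the 2 control lines differ for these genes, the value holds only on the assumption that each single change would be the same on either background, which was not tested. A sum with VillinCreERT2 as the control of both single changes was not tested either. Against VillinCreERT2, Cdk8 fl/fl/Cdk19-/- was called lower for Hmox1 (-1.05), Gclc (-0.99), Akr1b8 (-0.94) and Nqo1 (-0.91). This would lower the sum for these genes, so their result hangs on the control chosen. Within the time course, where both arms are 1 line, Gclc, Hmox1 and Gpx2 also fell with 4-OHT at day 7 (-0.75, -1.51 and -0.81 log2, as given above), while Nqo1 passed the adjusted p alone (-0.43).

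In Wnt3-CM, where the medium supplies Wnt from outside the organoid, 3 of the 10 genes rose with 4-OHT at day 10 and none fell, against 16.9% of all genes. Gpx2 was at 701, 758 and 778 CPM with EtOH and 1601, 1635 and 1538 with 4-OHT (log2 difference 1.09 ± 0.07 SE, edgeR adjusted p = 4.24e-11). Nqo1 was at 31.8, 32.2 and 29.6 CPM and 75.3, 59.4 and 60.1 (log2 difference 1.06 ± 0.09 SE, edgeR adjusted p = 6.4e-09). Gclm was at 111, 110.1 and 113 CPM and 183, 170.0 and 167 (log2 difference 0.64 ± 0.06 SE, edgeR adjusted p = 4.5e-08). No library overlapped for these 3 genes. Gclc (0.52 log2), Akr1b8 (0.41), G6pdx (0.29), Txnrd1 (0.23), Srxn1 (-0.26) and Hmox1 (-0.51) passed the adjusted p alone, which 48.2% of all genes reached at any fold, and Nfe2l2 overlapped between the arms. In the wider lists 23 of 70 genes rose and 7 fell. The Paneth marker sum was 6913 to 7644 CPM with EtOH and 1907 to 2347 CPM with 4-OHT, and its part in these results was not tested.

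Set against the day 10 response in standard medium, the response in Wnt3-CM differed for 2 of the 10 genes, where 13.3% of all genes were called. That of Gpx2 was higher by 1.07 log2 (edgeR adjusted p = 8.01e-08) and that of Srxn1 lower by a signed difference of -0.91 (4.98e-07). Nqo1 rose in both media, by 1.06 log2 in Wnt3-CM and 1.00 in standard medium, and its responses differed by 0.06 ± 0.18 (SE). In vehicle organoids at day 10, Gclc (-1.11 log2), Nqo1 (-1.20), Gpx2 (-0.62) and Gclm (-0.60) were lower in Wnt3-CM than in standard medium, and Akr1b8 (0.99), Srxn1 (0.98) and Hmox1 (0.66) higher, against 23.3% of all genes called. Gclm was at -0.57 without standard medium replicate 3 and Gpx2 at -0.58 without Wnt3-CM replicate 1, and each then lost its call. The media come from separate tables, so medium and table cannot be told apart.

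In organoids with kinase-dead CDK19, 2 of the 10 genes rose with 4-OHT at day 7 and none fell, against 12.3% of all genes. The columns of this line name EtOH or 4-OHT but not the genotype, and were assigned to it because no other labelled line with an EtOH arm remained. Akr1b8 was at 18.2, 23.7 and 26.1 CPM with EtOH and 74.3, 66 and 73.1 with 4-OHT, a 3.13-fold rise (log2 difference 1.65 ± 0.12 SE, edgeR adjusted p = 1.67e-05). Nqo1 was at 124, 92.3 and 90.7 CPM and 197, 146 and 151 (log2 difference 0.69 ± 0.16 SE, edgeR adjusted p = 0.0169). The arms did not overlap, but the call for Nqo1, whose fold was the smaller, was lost without EtOH replicate 2 (0.60), EtOH replicate 3 (0.59) or 4-OHT replicate 1 (0.54). Gclc stood higher with 4-OHT, at 770.2, 434 and 453 CPM against 379, 267 and 268, but replicate 1 lay above the other 2 in both arms and the difference did not pass (log2 difference 0.86 ± 0.29 SE, edgeR adjusted p = 0.0961). A fit blocked on the numbers in the column names, added after seeing the data, did call Gclc, as given below. The labels tie none of these columns to a numbered sample. Nfe2l2 (0.53 log2), Srxn1 (0.58), Gclm (0.36), G6pdx (0.32) and Txnrd1 (0.26) passed the adjusted p alone, all upward, where 27.8% of all genes reached it at any fold. Hmox1, at 6.57, 7.36 and 8.49 CPM and 6.74, 5.38 and 5.97, overlapped. In the wider lists 20 of 73 genes rose and 2 fell, with 9 of 14 genes of the carbonyl and quinone list among the former. The similar neighbours of Akr1b8 were among them, Akr1b7 at 4.3, 6.7 and 7.49 CPM with EtOH and 15.3, 21.2 and 24.8 with 4-OHT (log2 difference 1.72 ± 0.24 SE, edgeR adjusted p = 0.0017) and Akr1b10 at 2.06, 2.22 and 2.28 and 4.08, 3.65 and 4.4 (log2 difference 0.88 ± 0.16 SE, edgeR adjusted p = 0.00282). The Paneth marker sum was 3382 to 3591 CPM with EtOH and 1733 to 2060 CPM with 4-OHT, and the enterocyte sum 17068 to 18506 CPM and 22098 to 25366 CPM, whose part in the results was not tested.

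The day 7 response of the kinase-dead line was higher than that of the CDK19-null line for 6 of the 10 genes, where 11.1% of all genes were called. The differences were 1.601 ± 0.33 log2 (SE) for Gclc, 1.19 ± 0.18 for Hmox1, 1.11 ± 0.21 for Nqo1, 0.95 ± 0.20 for Akr1b8, 0.84 ± 0.21 for Gpx2 and 0.61 ± 0.09 for G6pdx. Gclc, Hmox1 and Gpx2, which fell at day 7 in the CDK19-null line, were not called in the kinase-dead line. With EtOH, Hmox1 in the kinase-dead line already lay below its level in either arm of the CDK19-null line at day 7, as given above. The part of this low starting level in the result was not tested. The call for G6pdx was lost without kinase-dead 4-OHT replicate 1 (0.56) or CDK19-null 4-OHT replicate 2 (0.58), and that for Gpx2 without CDK19-null 4-OHT replicate 1 (0.73). Line, allele and table cannot be told apart in this comparison.

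**Figure D4:**
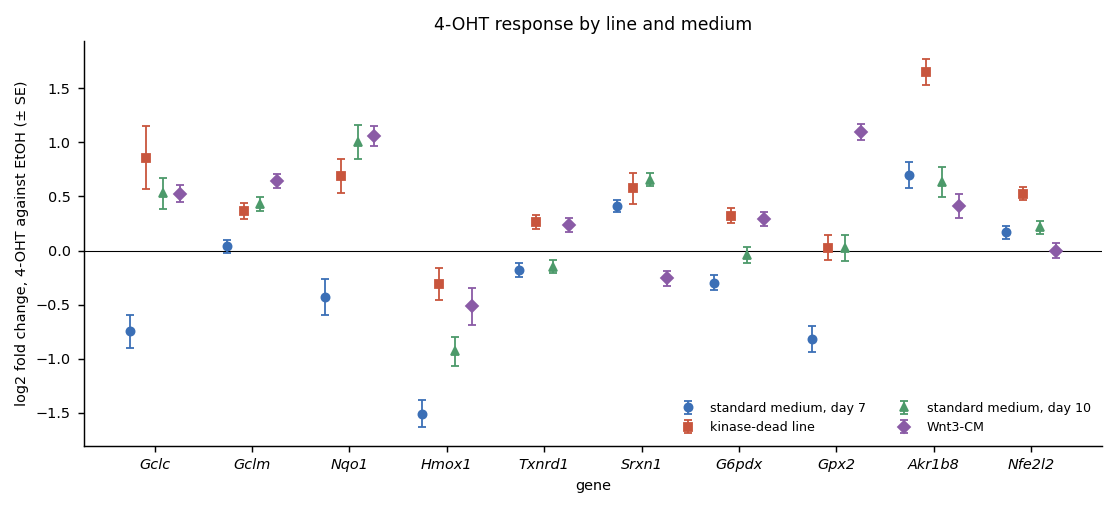
Log2 differences of the 10 genes with 4-OHT against EtOH, with bars of 1 standard error, in the time course at days 7 and 10 (standard medium), in Wnt3-CM at day 10 and in the kinase-dead line at day 7. Gclc is at -0.75 in standard medium at day 7 and at 0.86 in the kinase-dead line.

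In IECs taken from mice none of the 10 genes was called, against 1.5% of all genes, and none had an adjusted p below 0.05. The lowest unadjusted p in edgeR were those of Akr1b8 (0.0267) and Gclm (0.0496). Hmox1 was at 1.26, 13.8 and 1.98 CPM in VillinCreERT2 and 32.6, 11.5 and 10.3 in CDK8iIEC-KO/Cdk19-/- IECs (log2 difference 1.68 ± 1.03 SE, edgeR adjusted p = 0.413). Akr1b8 was at 9.22, 17 and 12.1 CPM and 21.4, 32.1 and 16.6 (log2 difference 0.87 ± 0.31 SE, edgeR adjusted p = 0.194). VillinCreERT2 replicate 2 overlapped the double knockout for both genes. The sum of 9 immune markers was 73.9, 648 and 102 CPM in the VillinCreERT2 libraries and 1583, 835 and 850 CPM in the double knockout, and that of 7 mesenchymal markers 12.8, 883 and 55.1 CPM and then 966, 602 and 455 CPM. In organoids the immune sum was at most 1.36 CPM and the mesenchymal sum at most 42.8 CPM. In IECs both sums were lowest in the 2 libraries with the least Hmox1, and their part in the Hmox1 levels was not tested. Without VillinCreERT2 replicate 2, Hmox1 differed by 3.48 log2 (edgeR adjusted p = 0.0328) and Akr1b8 by 1.14 (0.0441), and both were called, in a fit that called 10% of all genes. Without any other single library none of the 10 was called, and the share of all genes ran from 0.0191% (without VillinCreERT2 replicate 3) to 3.69% (without double knockout replicate 2). The other 8 genes had log2 differences between -0.29 (Gclm) and 0.02 (Srxn1). For Gclc, which fell in double knockout organoids, the levels were 61.6, 41.9 and 47.3 CPM and 51.8, 53.1 and 47.3, and the ranges overlapped. The groups did not overlap for Gclm (-0.29), G6pdx (-0.25) and Nfe2l2 (-0.21), all lower in the double knockout with no call, where 26.8% of all genes did not overlap in either direction. In the wider lists 1 of 73 genes rose and 4 fell.

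**Figure D5:**
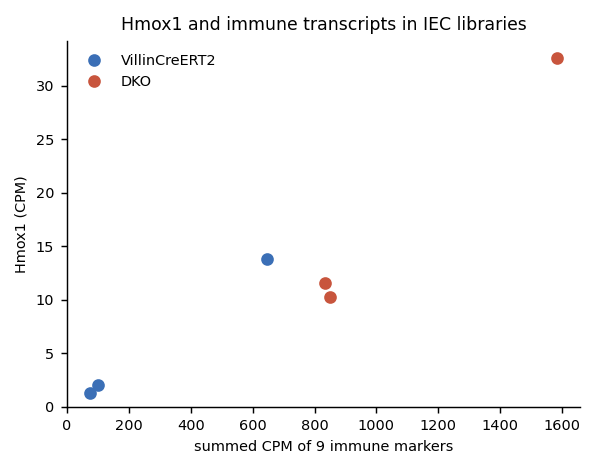
Hmox1 level in CPM (vertical axis) against the summed CPM of 9 immune markers (horizontal axis) in the 6 IEC libraries, both axes linear, with points coloured by genotype (DKO is CDK8iIEC-KO/Cdk19-/-). VillinCreERT2 libraries with sums of 73.9 and 102 CPM hold the least Hmox1, and the remaining 4 lie at 648 CPM or more with 10.3 to 32.6 CPM of Hmox1.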

How the data were processed

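RNA-Seq was done on organoids and IECs with 100 bp paired-end reads. Per the labels and the submitters' processing notes, the authors used STAR 2.5.2, featureCounts and Subread 1.6.3 on mm10. They deposited raw counts per gene in 4 tables, with 54752 genes in common. Strand settings are not given in the sources used here. For 6 columns no label could be matched, and they were not used, so kinase-dead IECs were not analysed here.

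From the deposited counts, each table was filtered (filterByExpr), TMM-scaled and fitted with edgeR 4.0.16 (R 4.3.3, quasi-likelihood F test, robust, two-sided). All groups of a fit shared the estimate of spread. The Wnt3-CM and kinase-dead libraries come from the same table but were filtered, scaled and fitted apart. Responses were compared across tables in joint fits of the counts. Benjamini-Hochberg adjustment ran over all genes tested, 13745 to 15636 per fit. A gene was called at an adjusted p below 0.05 and a fold above 1.5. Errors are standard errors of log2 differences unless marked SD. The steps were tested on simulated counts. Controls followed the study's methods (VillinCreERT2 for both Cre lines, C57BL/6 for Cdk8 fl/fl/Cdk19-/-).

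The genes, the wider lists (75 genes on NRF2 regulation, glutathione, thioredoxin, NADPH, carbonyl handling, haem and iron, and superoxide) and the marker lists were chosen with earlier results of these data known. The text names the 10 genes, Cdk8 and Cdk19, and up to 4 called genes of the wider lists per comparison by size of change with at least 50 counts; Akr1b7, Akr1b10 and Keap1 were added for their similarity or role. Alternatives were other scalings and filters, the DESeq2 1.42.0 test, the other control line, the replicate block, the compared groups alone and each library left out. Same-numbered replicates were checked for shared deviations in 13 comparisons and in none did every pair's correlation exceed 0.1. The samples were therefore treated as unpaired, although this check cannot exclude pairing. Replicate counts differed by more than sampling noise in all 57 pairs. GENCODE vM21 matched 53861 of 54752 gene IDs.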

Additional observations from a re-analysis of the deposited data

Results flagged for a closer look

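These values are differences between 2 responses to 4-OHT, tested as such in edgeR, that passed an adjusted p below 0.05 and a fold above 1.5. Each is a log2 difference with its adjusted p in parentheses, and each compares sets of 3 libraries.

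The response at day 5 was lower than at day 3 for Hmox1, -2.35 (1.52e-10), Akr1b8, -0.96 (9.44e-05), Gpx2, -0.92 (0.000253), and Txnrd1, -0.76 (1.47e-07). That of Hmox1 was lower again at day 7 than at day 5, -0.62 (0.0142), but 5 of the 12 libraries each cost this call when left out. At day 10 against day 7 the response was higher for Nqo1, 1.43 (0.000309), Gclc, 1.27 (0.000475), and Gpx2, 0.83 (0.00193). At day 10 against day 3 it was higher for Nqo1, 1.42 (6.68e-05), Nfe2l2, 0.72 (7.02e-08), and Srxn1, 0.60 (9.78e-07), and lower for Hmox1, -2.40 (3.3e-11), and Akr1b8, -0.82 (0.000599). The Srxn1 value is near the fold asked for, and its call was lost on leaving out any of 4 libraries.

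In Wnt3-CM the day 10 response was higher than in standard medium for Gpx2, 1.07 (8.01e-08), and lower for Srxn1, -0.91 (4.98e-07). In the kinase-dead line the day 7 response was higher than in the CDK19-null line for Gclc, 1.601 (0.00854), Hmox1, 1.19 (0.000285), Nqo1, 1.11 (0.0027), Akr1b8, 0.95 (0.00487), Gpx2, 0.84 (0.0156), and G6pdx, 0.61 (0.00032). Groups of 3 are too small for the rule on single libraries that stand apart, so none of the 19 groups was searched for them.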

How the results depend on the processing

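Each value was recomputed under other scalings, filters, tests, controls and sets of libraries. In the direction of change, the choice of control line moved the results the most. Against C57BL/6, CDK8iIEC-KO had 6 called genes in place of 2 (20.5% of all genes called), with Gclc at 0.72 log2, Nqo1 at 0.72 and Hmox1 at 1.52. The double knockout then had 2 in place of 4 (18.1%), Hmox1 (0.97) and Akr1b8, both higher, with Gclc at 0.20 and Nqo1 at 0.23. Against VillinCreERT2, Cdk8 fl/fl/Cdk19-/- had 4 called genes in place of 1 (18.5%), with Gclc at -0.99, Nqo1 at -0.91, Hmox1 at -1.05 and Akr1b8 at -0.94. Against the mean of both controls the counts were 1 for CDK8iIEC-KO, 0 for Cdk8 fl/fl/Cdk19-/- and 1 for the double knockout, with 8.35%, 5.3% and 13.9% of all genes. The gene called was Akr1b8, higher, in both cases, and Hmox1 in CDK8iIEC-KO was at 0.39 with no call. Changes of sign, uncalled genes included, numbered 13 of 20 against C57BL/6, 10 of 10 against VillinCreERT2 and 14 of 30 against the mean. These alternatives contain the difference between the control lines given above.

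The adjusted p alone, with no fold, gave 6 genes for CDK8iIEC-KO (30.3% of all genes), 3 for Cdk8 fl/fl/Cdk19-/- (15.5%), 9 for the double knockout (52.9%), 10 for C57BL/6 against VillinCreERT2 (61.3%), 5, 8, 9 and 7 for 4-OHT at days 3, 5, 7 and 10 (34.4%, 38.3%, 45.2% and 44.3%), 9 in Wnt3-CM (48.2%) and 7 in the kinase-dead line (27.8%). It gave 8, 3 and 6 for the change of response from day 3 to 5, 5 to 7 and 7 to 10 (36.8%, 18.9% and 16.8%), 7 for EtOH day 10 against day 7 (54%) and 4 for the response in Wnt3-CM against standard medium (29%). The change of response from day 5 to day 7 gave 2 genes in place of 1 under no filter, a minimum of 10 counts, DESeq2 size factors, upper-quartile scaling, the DESeq2 test, the replicate block and the 4 groups alone. DESeq2 called 1 gene in IECs (Akr1b8), with 5.87% of all genes. Upper-quartile scaling took Gclm (0.58), G6pdx (0.58) and Akr1b8 (0.56) under the fold in EtOH day 5 against day 3, G6pdx in C57BL/6 against VillinCreERT2 (-0.57) and in the kinase-dead against the CDK19-null response (0.58), Txnrd1 in EtOH day 10 against day 3 (0.53, and 0.53 with a minimum of 10 counts) and Srxn1 from day 3 to day 10 (0.55, and 0.58 with the 4 groups alone).

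Leaving out 1 library at a time gave 3 to 7 genes for the double knockout against the sum of single changes, 0 to 2 in IECs, 1 to 3 for 4-OHT at day 5 and 0 to 2 for the change from day 5 to day 7. The share of all genes called moved by over 1.5 times in 2 of 23 comparisons, those of IECs and of EtOH day 7 against day 5. Of 1800 such values for single genes, 1679 kept direction and side of the threshold, 25 lost and 38 gained a call, and 58 changed sign, none of them called with or without the library and none over 0.0945 log2 in size with all libraries. The replicate block, run although the samples were treated as unpaired, changed 3 of 180, all gains at the fold asked for (Txnrd1 at -0.59 in C57BL/6 against VillinCreERT2, Gclc at -0.59 from day 5 to 7 and Hmox1 at 0.59 from day 7 to 10). For Wnt3-CM, the kinase-dead line and the fits across tables the labels tie no column to a numbered sample. A block on the numbers in the column names, added after seeing the data, changed 1 of 50 values, Gclc in the kinase-dead line (0.83 log2, edgeR adjusted p = 1.44e-07), which was then called. The correlations of same-numbered libraries there were 0.38, 0.19 and 0.095, not all over 0.1, and 4 of 6 libraries correlated best with their own number (in Wnt3-CM 6 of 6, with a lowest correlation of 0.0951).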

Other observations

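Outside the 10 genes, Slc7a11, the cystine carrier that feeds glutathione synthesis and another gene known to answer to NRF2, moved in the same direction as Hmox1 with 4-OHT at days 3, 5, 7 and 10. It rose at day 3 with 4-OHT, from 6.07 ± 1.49 CPM (SD, n = 3) to 26.6 ± 2.33 (2.13 ± 0.29 log2 ± SE, edgeR adjusted p = 1.54e-05). It fell at day 5 (-0.81 ± 0.28, edgeR adjusted p = 0.0287; this value lies outside the rule for named genes and was added after it was seen). It fell at day 7, from 27.7 ± 5.44 to 8.86 ± 3.21 CPM (-1.64 ± 0.28, 9.28e-05), and at day 10, from 40.2 ± 3.51 to 13.4 ± 0.933 CPM (-1.58 ± 0.26, 7.7e-05). It was also lower in Wnt3-CM with 4-OHT (-1.47 ± 0.08, 9.47e-13), in the double knockout against VillinCreERT2 (-1.85 ± 0.15, 2.95e-10) and in C57BL/6 against VillinCreERT2 (-2.48 ± 0.16, 5.42e-12). Slc7a11 was not called with 4-OHT in the kinase-dead line (-0.47 ± 0.33, edgeR adjusted p = 0.331) or in double knockout IECs (1.45 ± 0.82, 0.366). Its level was 4.89 ± 1.06 CPM in the double knockout, 17.6 ± 1.05 in VillinCreERT2 and 3.16 ± 1.13 in C57BL/6, so the mean of the double knockout lay between those of the control lines, and its difference from C57BL/6 was not tested.

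Gsta2, a glutathione S-transferase, changed direction over the time course. It fell with 4-OHT at day 3 (-1.28 ± 0.10 log2, edgeR adjusted p = 2.02e-11) and rose at day 10 (1.26 ± 0.08, 2.62e-13), in Wnt3-CM (1.89 ± 0.14, 2.95e-10) and in IECs of the double knockout (1.93 ± 0.28, 0.0361). The IEC comparison was unstable, with 3 to 1566 genes called when 1 library was left out. Of the same family, Gstm3 (-1.49 log2) and Gsta4 (-1.04) fell in these IECs. Reads of the near-identical Gsta1 and Gsta2 may be shared. Beside Akr1b8, the aldose reductase gene Akr1b3 rose in the kinase-dead line with 4-OHT, from 0.59 ± 0.11 to 6.92 ± 1.95 CPM (3.54 ± 0.26, edgeR adjusted p = 8.71e-06). That EtOH level was low beside 6.08 CPM with EtOH in the CDK19-null line at day 7 and 8.92 in VillinCreERT2 organoids, from separate tables. Gstm1 rose as well, from 840.3 ± 83.4 to 2536 ± 105 CPM (1.59 ± 0.08, 8.26e-07). In the CDK19-null line at day 7 Gstm1 was at 934 CPM with EtOH and 548 with 4-OHT. Its responses in these lines differed by 2.36 ± 0.11 log2 (edgeR adjusted p = 1.11e-09).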
